A study of Mus musculus with 3 samples.

Results

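The 7 genes described here encode CXC chemokines: Cxcl1, Cxcl2, Cxcl9, Cxcl10, Cxcl12, Cxcl14 and Cxcl16. They were taken by symbol from the 31053 genes of the count matrix, and each symbol matched 1 gene. Single-cell RNA sequencing had been run on dissociated brain tissue of mice whose strain the labels spell C56BL6, at an age of 10 weeks, with no genetic change given. The study set a control brain beside Ischemic Stroke, made by occluding the middle cerebral artery, and Hemorrhagic Stroke, made by injecting collagenase into the striatum. Tissue from several mice was used for each condition, and the interval between the stroke and the tissue collection of these libraries was not given in the sources used here. One library was made per condition, and the matrix marks its 3 libraries only by barcode suffixes 1 to 3, which no label pairs with a condition. The conditions were therefore not compared; values are given by barcode suffix, with no test, and 1 library per suffix gives no replicate error.

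Chemokines are small secreted or membrane-bound proteins that steer leukocytes through G protein-coupled receptors. Cxcl1 and Cxcl2 carry a glutamate-leucine-arginine motif ahead of the CXC cysteines and attract neutrophils through Cxcr2, while Cxcl9 and Cxcl10 are interferon-induced and attract T cells and NK cells through Cxcr3. Cxcl12 acts on Cxcr4 and is taken up by the scavenging receptor Ackr3, and Cxcl16 is made as a transmembrane protein whose receptor is Cxcr6. Cxcl14 is a constitutive chemokine of many epithelia and of the brain, and its receptor is still debated.

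Both inflammatory pairs lie on mouse chromosome 5 (GRCm38, GENCODE M21). The Cxcl1 gene (ENSMUSG00000029380) spans 90891241 to 90893115 on the plus strand and Cxcl2 (ENSMUSG00000058427) spans 90903871 to 90905938, which leaves 10755 bases between them. Cxcl9 (ENSMUSG00000029417) at 92321347 to 92328079 and Cxcl10 (ENSMUSG00000034855) at 92346638 to 92348889 lie on the minus strand, 18558 bases apart. Cxcl12 (ENSMUSG00000061353) is on chromosome 6 at 117168535 to 117181367, Cxcl14 (ENSMUSG00000021508) on chromosome 13 at 56288643 to 56296551, and Cxcl16 (ENSMUSG00000018920) on chromosome 11 at 70453983 to 70459984.

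Promoter sequences were in the RefSeq table (GRCm38.p6) for 6 of the 7 genes, all but Cxcl16. The 250 bases before the annotated start are shown for the neighbours of chromosome 5, because the paired genes were highest in different cell classes, as described below. Capitals mark matches, on either strand, to the NF-kB consensus and to the interferon-stimulated response element GAAANNGAAA. The windows are chr5:90890995-90891244 for Cxcl1, chr5:90903649-90903898 for Cxcl2, chr5:92328080-92328329 for Cxcl9 and chr5:92348890-92349139 for Cxcl10, the last pair read on the minus strand.
Cxcl1: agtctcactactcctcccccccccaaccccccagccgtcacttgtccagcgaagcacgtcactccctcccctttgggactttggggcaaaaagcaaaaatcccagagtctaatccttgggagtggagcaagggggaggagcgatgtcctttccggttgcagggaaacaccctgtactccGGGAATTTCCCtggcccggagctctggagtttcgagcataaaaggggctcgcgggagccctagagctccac
Cxcl2: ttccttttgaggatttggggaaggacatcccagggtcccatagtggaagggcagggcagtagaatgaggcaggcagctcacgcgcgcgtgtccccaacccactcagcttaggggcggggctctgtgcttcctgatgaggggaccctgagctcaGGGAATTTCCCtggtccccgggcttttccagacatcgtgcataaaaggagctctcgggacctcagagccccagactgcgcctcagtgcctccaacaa
Cxcl9: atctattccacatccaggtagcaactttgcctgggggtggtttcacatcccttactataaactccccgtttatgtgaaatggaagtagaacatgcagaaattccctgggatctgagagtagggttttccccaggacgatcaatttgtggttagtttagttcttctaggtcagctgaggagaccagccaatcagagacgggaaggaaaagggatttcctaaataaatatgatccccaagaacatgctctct
Cxcl10: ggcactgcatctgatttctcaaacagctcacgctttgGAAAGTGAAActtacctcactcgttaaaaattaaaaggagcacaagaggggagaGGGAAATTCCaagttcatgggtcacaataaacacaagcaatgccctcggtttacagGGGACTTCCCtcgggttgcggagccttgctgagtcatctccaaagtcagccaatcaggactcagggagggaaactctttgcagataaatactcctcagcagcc

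Cxcl1 and Cxcl2 shared the run GGGAATTTCCCTGG, their longest run in common. It began 71 bases before the Cxcl1 start and 97 bases before the Cxcl2 start of the RefSeq table. Both of these starts lie downstream of the GENCODE starts given above, so the distances from the GENCODE starts are shorter. The run holds the NF-kB match of each window, which reads on both strands as overlapping matches. Cxcl10 held 2 separate NF-kB matches, GGGAAATTCC and GGGACTTCCC, and the response element match GAAAGTGAAA. Neither motif was matched in the Cxcl9 window, and in the Cxcl14 window the response element was matched once, as GAAACAGAAA. Over 32851 promoter windows of the same table, each 300 bases long, 4.51% held an NF-kB match and 3.44% the response element. These are letter matches in a short window and say nothing of which factor was bound.

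Cell classes were set by gates on marker UMIs in barcodes with at least 1000 UMIs and at most 30% mitochondrial UMIs, which kept 31982 of 35968 barcodes (8969 to 13769 per library). A class name means only that its gate was passed, so that microglia stands for microglia-like cells by C1qa, C1qb and C1qc, endothelial for Cldn5 and Flt1, and neutrophil for S100a8 and S100a9. Of other microglial markers, P2ry12, Tmem119 and Cx3cr1 were higher in microglia than in every other class ordered, and Sall1 was at 49.4 counts per 1000000 UMIs (CPM) there and 53.5 CPM in 26 ependymal cells. The 4 further endothelial markers and the 4 further neutrophil markers were highest in their own class. The libraries differed in the cells they held. Of 927 endothelial cells 908 came from the library of suffix 3, as did 105 of 109 pericytes and 158 of 193 border macrophages, whereas it gave 25 of 2548 T cells and 32 of 313 neutrophils. Between libraries, 110 barcode sequences were shared, 90 of them among kept barcodes. Levels are UMIs of a gene summed over a class and divided by all UMIs of that class, in CPM, with exact Poisson 95% intervals in brackets. Shares of cells with a UMI have exact Clopper-Pearson 95% intervals, and both kinds of interval cover counting error only.

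The 7 genes were ordered over the 18 classes with at least 20 cells. Cxcl1 was highest in pericytes, Cxcl2 in neutrophils, Cxcl10 in microglia, Cxcl12 in endothelial cells and Cxcl14 in astrocytes, while Cxcl9 and Cxcl16 were highest in monocyte/dendritic cells. This order sums over libraries that held different cells, and it was not the same within each of them, as given for each gene. Microglia, the largest class, held 61.5% of all Cxcl2 UMIs, 88.6% of Cxcl9, 85.7% of Cxcl10, 75.2% of Cxcl14 and 87.6% of Cxcl16. The level in the highest class was at least 5-fold over the next class, with a pseudocount of 1 CPM, for 3 of the 7 genes, Cxcl9 (6.42-fold), Cxcl12 (7.55-fold) and Cxcl14 (6.05-fold). Among 14000 genes with at least 10 CPM in a class, 10.4% met that fold. The median fold was 4.81 over the 7 genes and 1.40 over all 14000. Without the library of suffix 3, in which nearly all endothelial cells lay, Cxcl2 and Cxcl9 met it and Cxcl12 and Cxcl14 did not, against 8.63% of genes. With doubled gates or with barcodes of several gates kept, Cxcl9 and Cxcl14 met it and Cxcl12 did not, against 9.61% and 9.16% of genes. With the filter of the study's methods Cxcl2 met it as well, against 10.3%. A group of 16 fibroblasts, too few to be ordered, was at 476 CPM of Cxcl12.

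**Figure D1:**
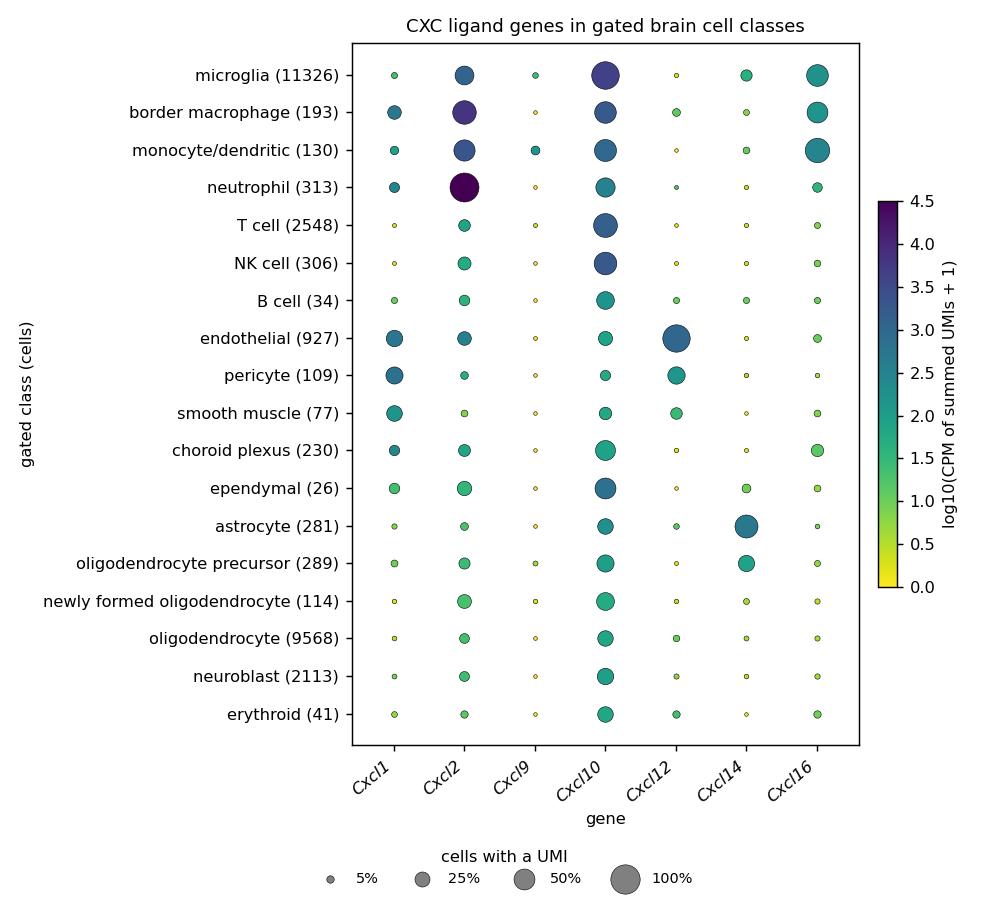
Levels of the 7 CXC ligand genes (columns) in 18 gated classes (rows, with the number of cells). Colour is log10(CPM + 1) of summed UMIs and point area grows with the share of cells with a UMI; the strongest colour is that of Cxcl2 in neutrophils (30642 CPM), and Cxcl10 shows large points in microglia, T cells and NK cells.

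Cxcl1, a neutrophil attractant, was at 654 CPM (574 to 743) in pericytes, the contractile cells around capillaries, where 33.0% of 109 cells (24.3 to 42.7%) had a UMI. Endothelial cells at 536 CPM (520 to 552) and border macrophages at 516 CPM (477 to 558) followed, and these neighbours could not be told apart by their intervals. Neutrophils were at 290 CPM, choroid plexus cells at 245 CPM, smooth muscle cells at 144 CPM and monocyte/dendritic cells at 88.5 CPM. Microglia were at 20.6 CPM and oligodendrocytes at 2.21 CPM, the latter with a UMI in 1.12% of cells. The first place depended on the gates: with barcodes of several gates kept, pericytes were at 278 CPM and fibroblasts were highest, and with doubled gates pericytes were at 452 CPM and border macrophages were highest. Endothelial cells held 37.9% of all Cxcl1 UMIs, more than the 18.1% in microglia.

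The libraries carried Cxcl1 in different cells. Pericytes were at 673 CPM (591 to 764) in suffix 3, and the 4 pericytes of the other libraries held 0 Cxcl1 UMIs. The 158 border macrophages of suffix 3 were at 584 CPM (539 to 632), which overlapped with the pericytes there. Border macrophages were at 80.1 CPM in the 18 cells of suffix 1 and 12.6 CPM in the 17 of suffix 2, the latter from 1 UMI. In neutrophils the order was turned, with 381 CPM in suffix 1, 490 CPM in suffix 2 and 13.4 CPM in suffix 3. These levels rest on few cells, since 33 of 313 neutrophils had a Cxcl1 UMI and 12 had 10 or more. The shares with a UMI were 9.42, 15.5 and 9.38% in suffixes 1 to 3, and 1 cell held 107 of the 384 UMIs. Choroid plexus cells were at 88.9 CPM in suffix 1 and 388 CPM in suffix 2, 114 cells in each, but in suffix 1 a single cell held 153 of the 158 UMIs. Cxcl1 was also uneven from cell to cell: the 10% of endothelial cells with the most Cxcl1 UMIs held 83.4% of those of the class, and 69.7% of endothelial cells had no Cxcl1 UMI. In pericytes the 10% with the most held 76.7%, and 67.0% had no Cxcl1 UMI. In neutrophils the 10% with the most held 99.7%, and 89.5% had no Cxcl1 UMI.

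Cxcl2, the second Cxcr2 ligand, was at 30642 CPM (30344 to 30942) in neutrophils and had a UMI in 97.4% of 313 cells (95.03 to 98.9%). Border macrophages followed at 6364 CPM, monocyte/dendritic cells at 2031 CPM, microglia at 1185 CPM and endothelial cells at 358 CPM, and the intervals of these 5 classes were all apart in the sum over libraries. Border macrophages were at 6022 CPM in suffix 1, 2082 CPM in suffix 2 and 6705 CPM (6551 to 6862) in suffix 3. In suffix 3 they lay above the neutrophils, which were at 1229 CPM (1119 to 1347) there, so the first and second place were exchanged in that library. Monocyte/dendritic cells were at 963 CPM (870 to 1063), 3236 CPM (3091 to 3386) and 171 CPM (110 to 255) in suffixes 1 to 3. They lay below microglia in suffixes 1 and 3, at 1337 and 335 CPM, and above border macrophages in suffix 2. Endothelial cells of suffix 3, at 355 CPM (342 to 368), overlapped with its microglia (325 to 345). From T cells (72.6 CPM) downward, each class overlapped with the next. The level was low in classes that should lack the gene, at 24.0 CPM in neuroblasts and 21.5 CPM in oligodendrocytes.

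Neutrophils differed by library, with 40753 CPM in suffix 1 (223 cells), 49709 CPM in suffix 2 (58 cells) and 1229 CPM in suffix 3 (32 cells). The 32 cells of suffix 3 lay far below the others, and they were deeper, with a median of 8926.5 UMIs against 2968 and 2424. Their other neutrophil genes did not move alike. Retnlg was at 13658 CPM against 2509 and 3484 CPM in suffixes 1 and 2, and Mmp8 at 880 CPM against 46.3 and 92.7 CPM. Csf3r was lower, at 408 CPM against 1277 and 914 CPM, and Mmp9 at 563 CPM lay between 516 and 755 CPM. The receptor gene Cxcr2 was at 148 CPM against 588 and 550 CPM. Summed over 8 genes induced by NF-kB or TNF, the level in neutrophils was 31044 CPM in suffix 1, 36608 CPM in suffix 2 and 3297 CPM in suffix 3. Il1b, which encodes interleukin-1 beta, was at 8600, 7849 and 1298 CPM in the same order. Without the library of suffix 1 the neutrophil level of Cxcl2 was 15204 CPM, and without that of suffix 3 it was 42175 CPM. The part of depth and of the other genes in the Cxcl2 difference was not tested.

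In microglia Cxcl2 was unevenly spread over the cells. At least 1 UMI was found in 40.5% of 11326 microglia, 19.98% had 10 or more, the highest had 498, and the 10% of cells with the most held 75.7% of the UMIs. Levels were 1337 CPM in suffix 1, 1297 CPM in suffix 2 and 335 CPM in suffix 3. Microglia with a Cxcl2 UMI after each cell was thinned to 1000 UMIs (2799 cells) had 51.6 CPM of Cxcl1, those without 5.07 CPM. By library the values were 47.4 and 2.67 CPM in suffix 1, 56.9 and 6.46 CPM in suffix 2, and 11.1 and 4.99 CPM in suffix 3, where the groups lay nearest to each other. Few cells carried Cxcl1, with a UMI in 2.90% of all microglia. After thinning the share was 2.68% in those with Cxcl2 and 0.35% in those without. For Cxcl10 the same groups were at 4781 and 4341 CPM, and in suffix 3 alone at 5436 and 3929 CPM. Cells with Cxcl2 were deeper, with a median of 11045 UMIs against 6544, and the part of depth was not tested.

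**Figure D2:**
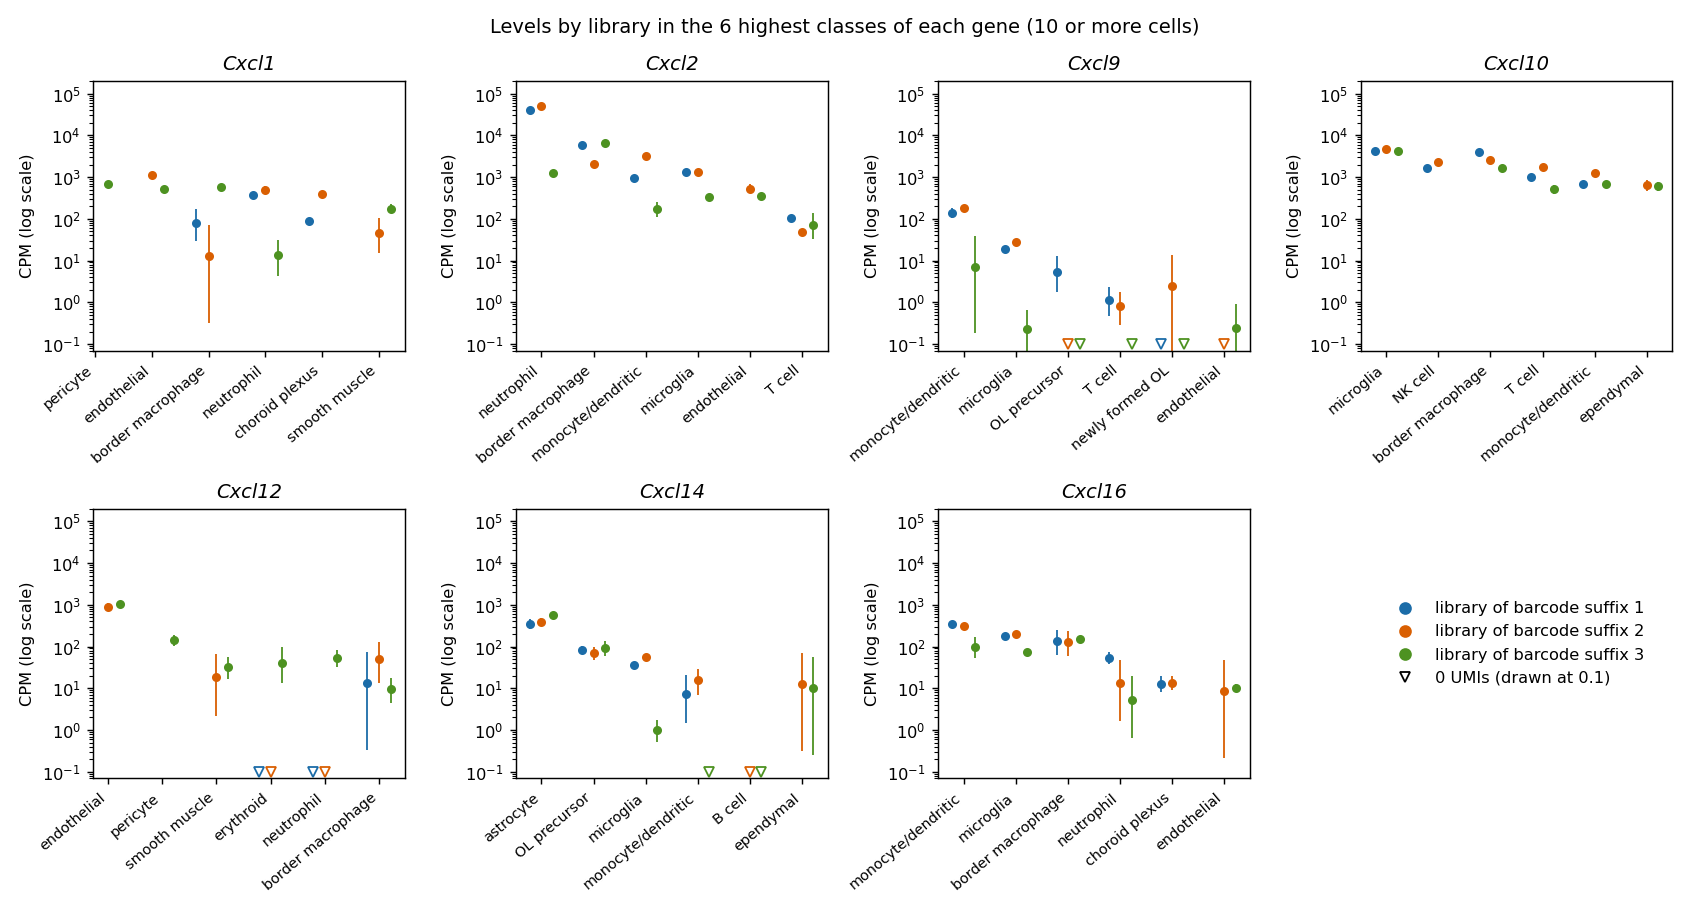
CPM of each gene on a log axis in its 6 highest classes, by library (colour), with exact Poisson 95% intervals; libraries with under 10 cells of a class are left out and open triangles at 0.1 stand for 0 UMIs. Cxcl2 in neutrophils and Cxcl14 and Cxcl9 in microglia lie far lower in the library of suffix 3, while Cxcl10 in microglia lies between 4116 and 4669 CPM in all 3.

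Within endothelial cells, Cxcl1 and Cxcl2 on the one side and Cxcl12 on the other were highest in different vessel segments. Cells with at least 2 UMIs of a marker set went to the set with the most UMIs, arterial (Bmx, Sema3g, Gkn3, Efnb2), capillary (Mfsd2a, Slc7a5) or venous (Slc38a5, Vwf, Nr2f2). Cxcl12 was at 2224 CPM (2140 to 2310) in 171 capillary cells, 1061 CPM (999 to 1126) in 108 arterial cells and 567 CPM (545 to 589) in 387 venous cells. Cxcl1 was instead highest in venous cells at 838 CPM (812 to 864), and arterial cells at 104 CPM (85.6 to 126) and capillary cells at 89.2 CPM (73.0 to 108) overlapped. Cxcl2 was at 556, 80.0 and 39.5 CPM in venous, arterial and capillary cells. Ackr1, the atypical receptor of venules that binds inflammatory chemokines without signalling, was at 882 CPM in venous cells. Its 4159 UMIs there lay in 26.1% of the cells, and it had 2 UMIs in arterial and 1 in capillary cells. The venous cells were deeper, with a median of 8681 UMIs against 6721 and 5602.

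The same opposition was seen between single cells of suffix 3 (908 endothelial cells, each thinned to 1000 UMIs for the split). Cells with a Cxcl1 UMI (134) had 296 CPM of Cxcl12, the other 774 had 1330 CPM. Cxcl2 went with Cxcl1, at 1005 CPM in cells with Cxcl1 and 126 CPM in those without. Restricting the cells to the 383 venous ones of suffix 3 left the pattern in place: Cxcl12 was at 249 CPM with Cxcl1 and 786 CPM without, and Cxcl2 at 1058 CPM and 212 CPM. Cells with Cxcl1 had a median of 12479 UMIs here and those without 6942, and the part of depth in this was not tested. Immediate early and stress genes, 12 in the list, summed to 53652 CPM in endothelial cells, 54642 CPM in pericytes and 58385 CPM in border macrophages, the classes highest for Cxcl1, against 23115 CPM in microglia and 18366 CPM in neutrophils. Suffix 3 held most endothelial cells, pericytes and border macrophages. Within it the sum was 53702 CPM in endothelial cells, 60034.5 CPM in border macrophages, 39628 CPM in microglia and 5910 CPM in neutrophils. Microglia were at 5.75 CPM of Cxcl1 there, against 18.4 and 25.2 CPM in suffixes 1 and 2. The part of these 12 genes and of the library in the Cxcl1 levels was not tested.

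**Figure D3:**
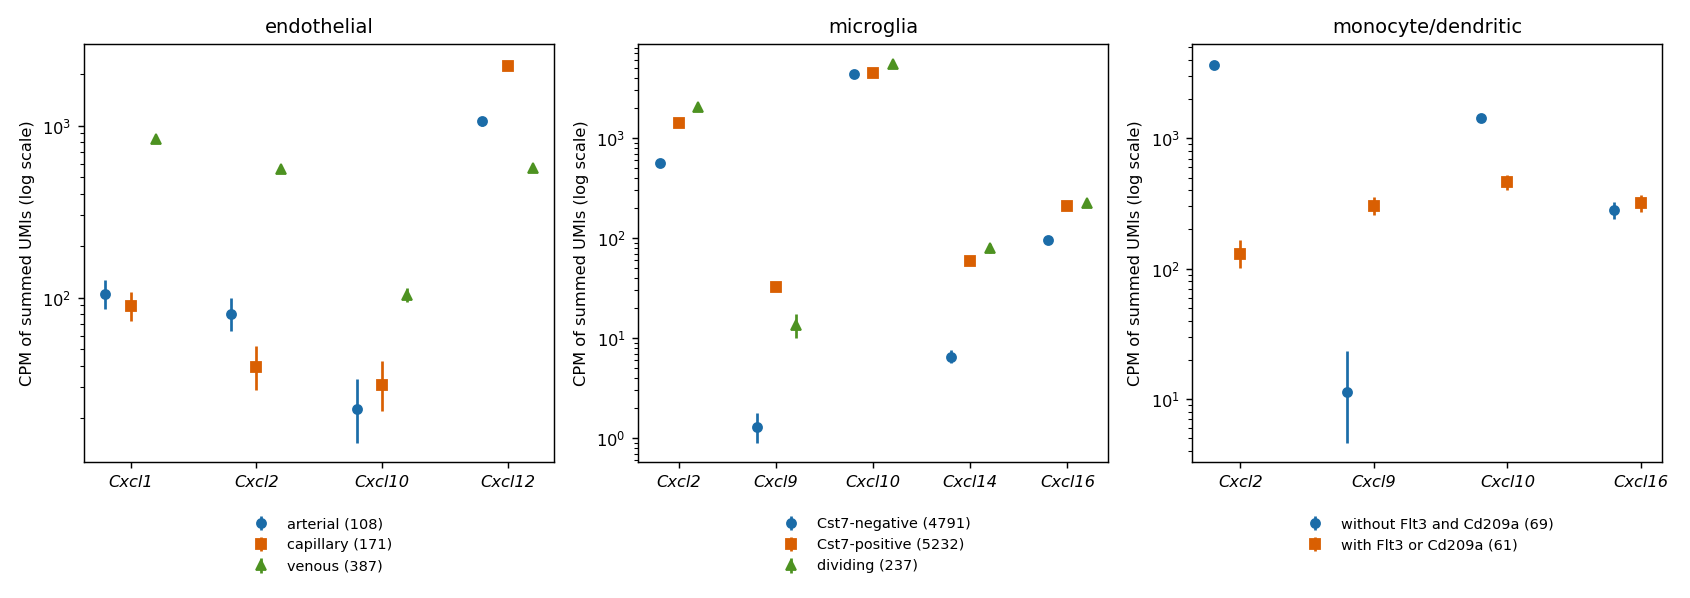
CPM (log axis) with exact Poisson 95% intervals in subclasses of endothelial cells, microglia and monocyte/dendritic cells, the number of cells in brackets. Venous cells are high for Cxcl1 and Cxcl2 and low for Cxcl12. Cst7-positive microglia are high for Cxcl9, Cxcl14 and Cxcl16, with a Cxcl9 UMI in 3.90% of them. Their Cxcl10 lies at 4417 CPM, and that of Cst7-negative ones at 4379 CPM, summed over libraries. In monocyte/dendritic cells with Flt3 or Cd209a UMIs, Cxcl2 lies lower than in the others and Cxcl9 higher, the latter from few cells.

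Cxcl12, the ligand of Cxcr4, was at 1057 CPM (1035 to 1079) in endothelial cells, with a UMI in 86.7% of 927 cells (84.4 to 88.8%). Pericytes were next at 139 CPM (104 to 183) and smooth muscle cells at 28.9 CPM, and from there down each class overlapped with the next. Endothelial cells held 57.3% of all Cxcl12 UMIs and barcodes that passed several gates a further 35.8%, among them 259 that passed both the endothelial and the pericyte gate (881 CPM). The 17 endothelial cells of suffix 2 were at 893 CPM and the 908 of suffix 3 at 1060 CPM. Microglia were at 0.92 CPM and oligodendrocytes at 10.0 CPM in the sum over libraries, and at 6.52 and 19.4 CPM in suffix 3. In neutrophils all 20 UMIs lay in 1 barcode of suffix 3. A group of 16 fibroblasts, too few to be ordered, was at 476 CPM.

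Cxcl10, the interferon-induced ligand of Cxcr3, was at 4488 CPM (4475 to 4501) in microglia, and 87.9% of them (87.3 to 88.5%) had a UMI. Libraries were at 4312, 4669 and 4116 CPM in suffixes 1 to 3, a range of 4116 to 4669 CPM. Microglia with UMIs of Cst7, a mark of activated cells, were at 4417 CPM, those without at 4379 CPM and dividing ones at 5550 CPM. By library this was not alike. Those with and without Cst7 were at 4073 (4046 to 4101) and 4627 CPM (4577 to 4678) in suffix 1. In suffix 2 they were at 4583 and 4586 CPM, and suffix 3 held 8 cells with Cst7. Cxcl10 was also spread over the cells, since the 10% of cells with the most held 37.7% of the UMIs. NK cells (1830 CPM) and border macrophages (1818 CPM) came next and overlapped in the sum over libraries. Within suffix 1 they did not, with border macrophages at 3965 CPM (3527 to 4443) and NK cells at 1674 CPM (1605 to 1745), and in suffix 2 they were at 2549 and 2354 CPM with overlapping intervals. The 158 border macrophages of suffix 3, which held 5 NK cells, were at 1613 CPM. Below them were T cells (1417 CPM), monocyte/dendritic cells (983 CPM) and ependymal cells (682 CPM). All 18 classes were over 10 CPM.

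C1q UMIs, which mark microglial RNA, were also counted in lymphocytes, oligodendrocytes and neuroblasts, so Cxcl10 was set beside the C1q genes of the same cells. In microglia there were 0.17 Cxcl10 UMIs per C1q UMI in each library. Oligodendrocytes had 0.21, 0.24 and 0.17 in suffixes 1 to 3 and neuroblasts 0.24, 0.30 and 0.21, at or above the microglial ratio. In the other classes apart from lymphocytes it ran from 0.045 (oligodendrocyte precursors, suffix 3) to 2.97 (monocyte/dendritic cells, suffix 2). Between these lay astrocytes at 0.56 in suffix 2, neutrophils at 0.64 in suffix 1 and endothelial cells at 0.65 in suffix 3. T cells had 2.59 in suffix 1, 2.82 in suffix 2 and 3.71 in suffix 3, and NK cells had 3.84 and 3.58 in suffixes 1 and 2. T cells with no C1q UMI at all were at 1297 CPM in suffix 1 (144 cells) and 1835 CPM in suffix 2 (183 cells), and T cells with C1q were at 959 and 1757 CPM. The share of cells with a Cxcl10 UMI ran the other way, at 55.6% without C1q and 62.5% with it in suffix 1, and 61.7% and 68.7% in suffix 2. Except for border macrophages, at 15662 CPM of C1q in suffix 3, barcodes that also passed the microglial gate had been left out of the classes. This limits the C1q UMIs in these ratios. The part of microglial RNA in the levels of lymphocytes, oligodendrocytes and neuroblasts was not tested. Called doublets were 0.71% of T cells and 0.33% of NK cells. T cells with Cd4 UMIs and those with Cd8a or Cd8b1 UMIs both carried Cxcl10, at 1462 and 1210 CPM. The libraries went opposite ways, with 757 CPM (700 to 817) and 934 CPM (900 to 969) in suffix 1. In suffix 2 the values were 2506 CPM (2380 to 2638) and 1386 CPM (1354 to 1419). Ifng, the interferon made by lymphocytes, was at 643 CPM in T cells and 623 CPM in NK cells. A Cxcl10 UMI was found in 65.2% of T cells (63.3 to 67.1%), against 26.7% of oligodendrocytes and 30.3% of neuroblasts. The median depths were 4717, 6101.5 and 4986 UMIs, and with each cell thinned to 1000 UMIs the shares were 38.0%, 6.86% and 8.05%. These shares sum over libraries, and suffix 3 held few of the T cells. In suffixes 1 and 2 the unthinned shares were 61.4 and 67.9% in T cells, 31.8 and 38.9% in oligodendrocytes, and 35.1 and 41.9% in neuroblasts. The thinned shares there were 31.8 and 42.0%, 7.73 and 10.7%, and 9.68 and 11.9% in the same order.

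**Figure D4:**
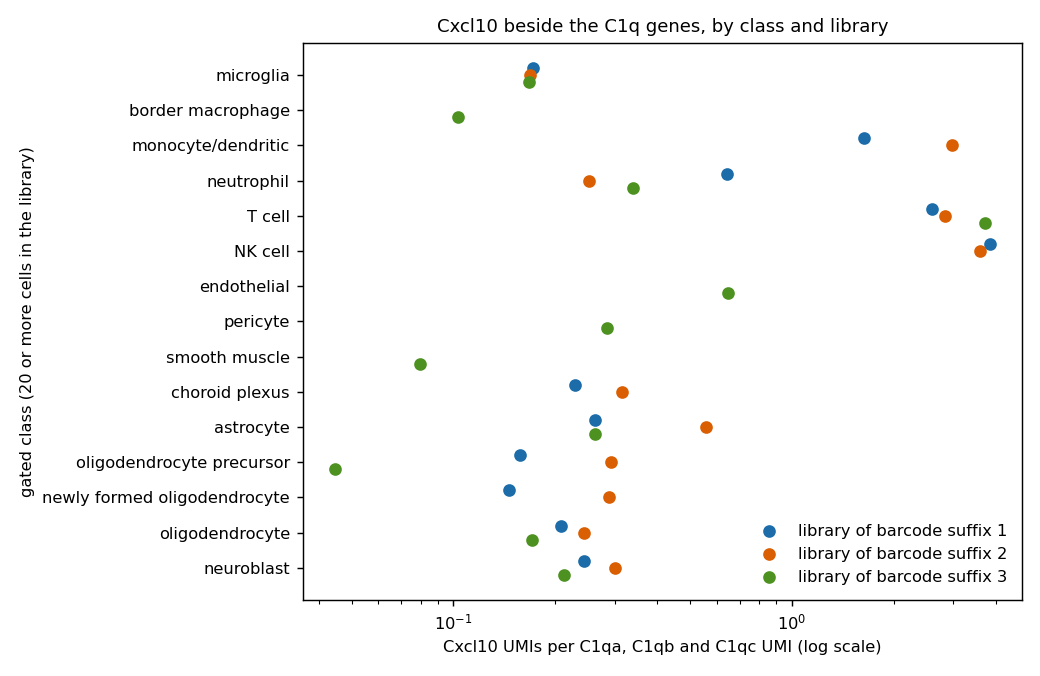
Cxcl10 UMIs per UMI of C1qa, C1qb and C1qc (log axis) in classes with at least 20 cells in a library, by library (colour). Microglia lie at 0.17 in all 3 libraries, oligodendrocytes between 0.17 and 0.24, and T cells and NK cells between 2.59 and 3.84.

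Cxcl9, the neighbour of Cxcl10 and a ligand of the same receptor, was found in 1.01% of kept barcodes. Monocyte/dendritic cells were at 144 CPM (122.9 to 168) from 163 UMIs in 10 of 130 cells, and 3 of these cells had 10 or more UMIs. Microglia were at 21.6 CPM (20.7 to 22.6), with a UMI in 2.30% of cells, 37 cells with 10 or more and 1 cell with 191. The level in microglia was 19.2 CPM in suffix 1, 27.9 CPM in suffix 2 and 0.23 CPM in suffix 3, the last from 3 UMIs. Below these classes no class exceeded 2.97 CPM. Microglia with and without a thinned Cxcl9 UMI were at 4517 and 4487 CPM of Cxcl10, with 74 cells in the first group, but the libraries behind these sums went opposite ways. In suffix 1 the 20 cells with Cxcl9 were at 2594 CPM of Cxcl10 and the rest at 4326 CPM, in suffix 2 the 54 cells with Cxcl9 at 5182 CPM and the rest at 4663 CPM.

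Among monocyte/dendritic cells, Cxcl9 was higher in those with UMIs of Flt3 or Cd209a, which mark dendritic cells: 61 such cells were at 302 CPM (257 to 353) and the other 69 at 11.4 CPM (4.59 to 23.5). Cxcl2 was the reverse, at 130 CPM in cells with Flt3 or Cd209a and 3630 CPM in those without. In suffixes 1 and 2, each with over 20 cells of each kind, Cxcl2 was at 179 and 93.6 CPM with the markers. In cells without them it was at 2067 and 4930 CPM. Cxcl9 was at 238 and 483 CPM in cells with the markers and 5.87 and 15.9 CPM in those without, but this rests on few cells. Its UMIs lay in 6 of the 61 cells with the markers (3.70 to 20.2%) and 4 of the 69 without (1.60 to 14.2%), which overlapped. In suffixes 1 and 2 they lay in 2 of 29 and 3 of 25 cells with the markers. Cst7-positive and Cst7-negative microglia were at 27.9 and 1.99 CPM of Cxcl9 in suffix 1 and at 35.0 and 2.28 CPM in suffix 2. These values rest on few cells too, with a UMI in 2.20 and 0.76% of cells in suffix 1 and 4.68 and 0.61% in suffix 2. The Cst7-positive cells were deeper, with medians of 12397 against 4892 UMIs and 11170 against 4450 UMIs, and the part of depth was not tested.

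Cxcl14 was at 494 CPM (453 to 538) in astrocytes, with a UMI in 60.9% of 281 cells (54.9 to 66.6%). Oligodendrocyte precursors were next at 80.8 CPM (67.8 to 95.6) and microglia followed at 42.7 CPM (41.5 to 44.0), and the intervals of all 3 were apart. Astrocytes were at 347, 395 and 569 CPM and precursors at 83.9, 70.0 and 90.2 CPM in suffixes 1 to 3, so the precursors overlapped between libraries. Microglia were not alike, at 35.5 and 56.3 CPM in suffixes 1 and 2 and 0.997 CPM in suffix 3, which came from 13 UMIs in 1926 cells. In suffixes 1 and 2 Cst7-positive microglia were at 44.7 and 66.1 CPM, Cst7-negative ones at 12.2 and 10.1 CPM. Suffix 3 held almost no Cst7-positive microglia, and its Cst7-negative ones were at 1.05 CPM. Cst7-positive meant 2 or more UMIs and Cst7-negative 0, and their median depths were 11466 and 5411 UMIs. The part of depth in these splits was not tested. Astrocytes with an Agt UMI were at 548 CPM (484 to 619) and those without at 450 CPM (398 to 508), which overlapped, although in suffix 2 the values were 550 and 271 CPM.

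Cxcl16, the transmembrane ligand of Cxcr6, was at 297 CPM (266 to 331) in monocyte/dendritic cells, of which 68.5% had a UMI. Microglia at 175 CPM (172 to 177) and border macrophages at 146 CPM (126 to 170) followed with intervals just apart in the sum over libraries, then neutrophils at 35.5 CPM. In suffix 3 this order was reversed, with border macrophages at 149 CPM (127 to 174) and microglia at 73.8 CPM (69.2 to 78.6). Border macrophages were at 134 and 126 CPM in suffixes 1 and 2, from 10 UMIs each. Monocyte/dendritic cells were at 346, 310 and 99.8 CPM in suffixes 1 to 3, the last from 13 cells. All other ordered classes were at 13.3 CPM or less, and oligodendrocytes were at 2.83 CPM with a UMI in 1.69% of cells. The 16 fibroblasts, too few to be ordered, were at 163 CPM (88.9 to 273) from 14 UMIs. In microglia of suffixes 1 and 2 the level was 177 and 196 CPM. Cst7-positive and Cst7-negative microglia were at 197 and 124 CPM in suffix 1 and at 212 and 109 CPM in suffix 2.

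Receptor genes were a list of 9, and all 9 reached 10 CPM in a class. Cxcr2, through which Cxcl1 and Cxcl2 act, was at 459 CPM in neutrophils, the class highest for Cxcl2, and had a UMI in 66.1% of them. Cxcr1 and Ccr1 were highest in neutrophils too, at 38.5 and 811 CPM. Cxcr3, the receptor of Cxcl9 and Cxcl10, was at 84.7 CPM in T cells and Cxcr6, that of Cxcl16, at 171 CPM. Cxcr4 was at 517 CPM in neutrophils, 127 CPM in B cells and in monocyte/dendritic cells, 117 CPM in T cells and 27.3 CPM in microglia. By library its level in neutrophils was 717, 490 and 99.3 CPM in suffixes 1 to 3. Ackr3 was at 365 CPM in pericytes, 196 CPM in smooth muscle and 53.5 CPM in endothelial cells, and Cxcr5 at 147 CPM in B cells.

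**Figure D5:**
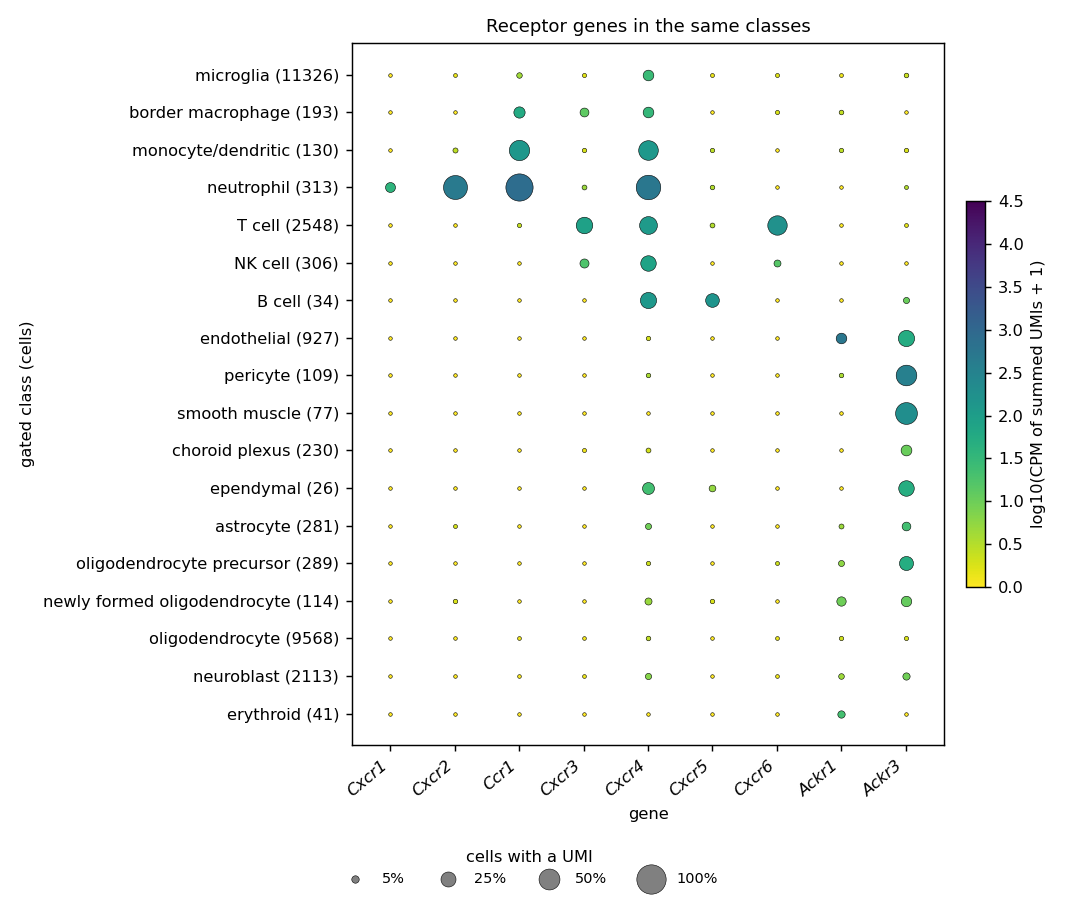
Levels of 9 receptor genes (columns) in the same 18 classes (rows, with the number of cells); colour is log10(CPM + 1) and point area grows with the share of cells with a UMI. Cxcr2, Ccr1 and Cxcr4 are highest in neutrophils, Cxcr3 and Cxcr6 in T cells, Ackr1 in endothelial cells and Ackr3 in pericytes.

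Of 8 other CXC ligands, 7 were in the matrix and 3 reached 10 CPM in a class: Cxcl3 in neutrophils (298 CPM), Cxcl13 in microglia (12.98 CPM) and Pf4 in border macrophages (2178 CPM), whose gate uses Pf4. The 8 genes induced by NF-kB or TNF summed to 35354 CPM in microglia and 23863 CPM in neutrophils. Most of the microglial sum came from Ccl4 (22246 CPM) and Ccl3 (6241 CPM), and Tnf was also highest in microglia. Il1b (6458 CPM) and Nfkbia (7863 CPM) were highest in neutrophils. Nfkbiz was highest in border macrophages, Tnfaip3 in T cells and Icam1 in endothelial cells. In 10 interferon genes the sum was 6356 CPM in microglia, 2296 CPM in neutrophils and 2249 CPM in T cells, and Ifnb1, which encodes interferon beta, was at 2292 CPM in microglia with a UMI in 76.6% of them. By library, microglia summed to 5505, 7612 and 2906 CPM for the interferon genes in suffixes 1 to 3, while Cxcl10 in them stayed between 4116 and 4669 CPM. The stress and immediate early genes summed to 18680, 21763 and 39628 CPM in the same cells. In neutrophils the interferon genes summed to 2970, 3517 and 357 CPM in suffixes 1 to 3. In T cells they summed to 1445, 2919 and 839 CPM.

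By Pearson r of log2(CPM + 10) over the 18 classes, among 8240 genes with at least 50 CPM in a class, the genes most like each ligand were as follows. Cxcl1 was most like Ier3 (0.90), Ifitm2 (0.89) and Gdf15 (0.84), and Cxcl2 most like Lrrc25 (0.95), Fes (0.95) and Rab32 (0.95). For Cxcl9 they were Atp6v0d2 (0.99), Ccl22 (0.96) and Mmp12 (0.96), and for Cxcl10 Fyb (0.92) and Pycard (0.90). Cxcl12 came out beside Adgrf5 (0.97), the gate marker Flt1 (0.96) and Jcad (0.96), Cxcl14 beside F3 (0.93), Gabrg1 (0.91) and Baalc (0.91), and Cxcl16 beside Ccl9 (0.96), Fcgr1 (0.94) and Cd68 (0.94). The 18 classes share libraries and free RNA, so these values describe the classes only.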

How the data were processed

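Dissociated brain cells were captured with the Chromium Single Cell 3' v3 chemistry. Per the submitters' processing notes, the authors mapped reads with Cell Ranger 3.1.0 and STAR to mm10, down-sampled reads across the 3 libraries and deposited 1 matrix of UMI counts per gene and barcode. Depth was 69270514 to 105957232 UMIs per library, with a median of 6147 UMIs per kept barcode. Barcodes with under 1000 UMIs (2862) or over 30% mitochondrial UMIs (1124) were left out. Of the rest, 28655 passed 1 of 20 gates, each needing at least 2 markers and 10, 20 or 50 marker UMIs per 10000; 1086 passed no gate and 2241 several, and these stood apart. Markers were fixed first and thresholds after the counts were seen. The 7 genes and all lists were chosen with earlier results of these data known. Named genes were the 7 genes, 5 fixed lists and, per gene, the 3 most alike over the classes. Some genes that this rule or the marker lists name are not reported here. Doublets were kept in the main analysis; Scrublet (scanpy 1.11.5, expected rate 8%) called 4.58% and an alternative left them out. For shares, each cell was thinned to 1000 UMIs by drawing without replacement. Where a count was 0, a floor of 3 counts applied. No test was run, since no library was labelled with its condition and each condition had 1 library. Python 3.11.15, NumPy 2.4.6, SciPy 1.17.1 and pandas 2.3.3 were used, and the code was checked on simulated data. Of the gene identifiers, 30934 of 31053 were in GENCODE M21. Other alternatives were other limits, doubled gates, the upper limits of the study's methods, mean CPM over cells, and leaving out each library; the count of genes at least 5-fold over the next class was run under these after the data were seen. No column of another sample was present (0).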

Additional observations from a re-analysis of the deposited data

Results flagged for a closer look

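UMIs of all 7 genes were also found in barcodes outside the gated classes, which the comparisons did not use. In the 3986 barcodes removed by the UMI or mitochondrial limit, levels were 15.4 CPM for Cxcl1, 339 CPM for Cxcl2, 3.60 CPM for Cxcl9, 800.4 CPM for Cxcl10, 30.4 CPM for Cxcl12, 19.0 CPM for Cxcl14 and 44.8 CPM for Cxcl16. In the 1086 barcodes in no gate they were 55.9 CPM for Cxcl1, 921 CPM for Cxcl2, 11.5 CPM for Cxcl9, 841 CPM for Cxcl10, 12.7 CPM for Cxcl12, 12.7 CPM for Cxcl14 and 42.9 CPM for Cxcl16. In the 2241 barcodes in several gates, of which 49.6% were called doublets, they were 86.9 CPM for Cxcl1, 553 CPM for Cxcl2, 1.15 CPM for Cxcl9, 1534 CPM for Cxcl10, 221 CPM for Cxcl12, 17.1 CPM for Cxcl14 and 50.6 CPM for Cxcl16. Each value rests on over 3 UMIs, and no label says which of these barcodes came from the control library.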

How the results depend on the processing

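The highest class was the same for all 7 genes under the 10% mitochondrial limit, the minimum of 2000 UMIs, the filter of the study's methods, without called doublets, with mean CPM over cells, and without the library of suffix 1 or 2. With doubled gates it was the same for 6, with Cxcl1 highest in border macrophages, and with barcodes of several gates kept also for 6, with Cxcl1 highest in fibroblasts. Without the library of suffix 3 it was the same for 5, with Cxcl1 highest in neutrophils and Cxcl12 in border macrophages, since under 20 endothelial cells were left. Leaving out 1 library gave 0 to 669 CPM for Cxcl1 in pericytes, 15204 to 42175 CPM for Cxcl2 in neutrophils, 107 to 164 CPM for Cxcl9, 4254 to 4566 CPM for Cxcl10, 863 to 1059 CPM for Cxcl12, 378 to 527 CPM for Cxcl14 and 269 to 325 CPM for Cxcl16. Without suffix 1, which holds most neutrophils, Cxcl2 was at 15204 CPM. Keeping barcodes of several gates moved Cxcl1 to 278 CPM, Cxcl2 to 27105 CPM, Cxcl10 to 4400 CPM and Cxcl12 to 997 CPM. Doubled gates gave 452 CPM for Cxcl1, 28290 CPM for Cxcl2 and 4455 CPM for Cxcl10. The study's filter gave 33703 CPM for Cxcl2, 173 CPM for Cxcl9, 4682 CPM for Cxcl10 and 1447 CPM for Cxcl12. Mean CPM over cells gave 572 CPM for Cxcl1, 37673 CPM for Cxcl2, 187 CPM for Cxcl9, 4279 CPM for Cxcl10, 1462 CPM for Cxcl12 and 452 CPM for Cxcl14. Without called doublets Cxcl10 was at 4511 CPM, and at a minimum of 2000 UMIs Cxcl2 was at 29836 CPM and Cxcl10 at 4508 CPM. Thinning moved the shares of cells with a UMI to 21.1% for Cxcl1, 94.2% for Cxcl2, 3.08% for Cxcl9, 75.5% for Cxcl10, 57.5% for Cxcl12, 31.3% for Cxcl14 and 29.2% for Cxcl16. The count of genes at least 5-fold over the next class was 2 to 4 under all alternatives, those on filters, gates and libraries chosen after seeing the data. No paired analysis was possible because each condition has 1 library, the libraries carry no replicate number and no test was run. Classes under 50 cells, and genes such as Cxcl9 that rest on few cells, are limited by depth.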
